A study of Mus musculus with 6 samples.

Results

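Proliferating cells switch on a shared set of genes that copy the DNA in S phase and pull the copies apart in mitosis. The 36 genes described here were taken by symbol from the 55487 genes of the deposited count tables, and all 36 were found. They were divided by role into 14 S phase genes and 22 mitotic genes. The S phase genes build and feed the replication fork or, as the E-type cyclins, act at the entry into S phase. The mitotic genes act from late S phase to cell division, and Stmn1 and Hmgb2 were placed with them by choice. The cells were tumour-associated macrophages of C57BL/6 mice, whose age is not given, taken 15 to 17 days after Lewis lung carcinoma cells, a mouse line, were placed beneath the skin of the flank. Cells positive for CD11b and F4/80 and negative for Ly6C and Ly-6G were sorted by their surface MHC class II. The 6 libraries carry 3 labels of MHC-II high and 3 of MHC-II low, with 1 of each in batches 1, 2 and 3, and no treatment set the groups apart. Separate mice or pools per library are not stated, so a p-value speaks of the spread between libraries and that spread may be technical.

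Transcripts of the protein used for the sort went against the labels. H2-Aa, a chain of MHC class II, averaged 5.52 ± 1.15 CPM under the high label and 1349.5 ± 172 CPM under the low label (mean and SD of 3 libraries), a log2 fold change of -7.93 (adjusted p 2.59e-05 by edgeR). CPM are reads scaled to a common library size, here with TMM factors, which align the bulk of genes between libraries. Directions are given by label throughout. Of 13 macrophage markers, 6 had a log2 fold change above 0 and 7 below 0 (median -0.17). In the main fit edgeR called 0 of them, against 0.446% of all tested genes. Without labelled low replicate 2 it called 5 of the 13, against 7.16%. With the GC offset and batch block, both described below, it called 2 of the 13, against 3.72%. Lyz2 and Adgre1, for lysozyme and F4/80, averaged 6456 ± 562 and 344 ± 25.8 CPM under the high label, against 3384 ± 264 and 184 ± 33.8 CPM under the low label. Apoe, for apolipoprotein E, averaged 601 ± 164 CPM under the high label and 1244 ± 602 CPM under the low label. Libraries labelled high held 15159356 to 25473051 reads in genes, and libraries labelled low 10202879 to 21290781. Labelled low replicate 3 stood apart. An rRNA copy took 47.3% of its reads in genes, against 3.85% to 13.5% in the other 5 libraries. Relative to the mean of each gene over all libraries, its log2 CPM also climbed most steeply with the GC content of genes. This relative slope was 0.819 per 10 percentage points, against -0.457 to 0.206 in the others.

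As background, E2F transcription factors switch on replication genes when the retinoblastoma protein is released from them, and the MuvB complex with B-MYB and FOXM1 later switches on mitotic genes. In tumours, macrophages come from recruited monocytes and also from division of macrophages in place, so a sorted population can hold some cycling cells. In bulk RNA, fewer cycling cells and less RNA per cycling cell cannot be told apart.

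Short motifs before the start of a gene are known for both routes. RefSeq promoters (GRCm38.p6) were matched for 28 of the 36 genes, as 29 sequences because Mcm7 has 2 starts, and the 250 bases before each start were searched on both strands. The E2F motif was searched as TTTCCCGC, TTTCGCGC, TTTGCCGC or TTTGGCGC. The CHR, the element bound by MuvB, was searched as TTTGAA, and the CCAAT box, bound by NF-Y, as CCAAT. An E2F match was in 3 of 12 S phase promoters and 1 of 17 mitotic promoters, against 1.86% of the 32851 promoters of the table. A CHR match was in 8 of 17 mitotic and 2 of 12 S phase promoters, against 16.0% of the table. A CCAAT box was in 16 of 17 mitotic and 10 of 12 S phase promoters, against 33.8%, and 12 and 5 of them held at least 2, against 10.1%. These matches are a description of letters and not of bound sites.

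Below are 4 of these promoters, shown because they hold the motifs of both groups and because Mcm5 and Mcm6 had log2 fold changes on opposite sides of 0 while both carry E2F words. Mcm5 (chr8:75109259-75109508, plus strand) has 2 overlapping E2F words, which begin 153 and 149 bases before the start, and Mcm6 (chr1:128359706-128359955, minus strand) has 3, the nearest beginning 47 bases before it. Cdk1 (chr10:69352913-69353162, minus strand) has 1 E2F word and 2 CHR words, and Mki67 (chr7:135716380-135716629, minus strand) has 2 CHR words, each with 3 CCAAT boxes. Capitals mark E2F, CHR and CCAAT matches on either strand, and the start follows the last base.
Mcm5: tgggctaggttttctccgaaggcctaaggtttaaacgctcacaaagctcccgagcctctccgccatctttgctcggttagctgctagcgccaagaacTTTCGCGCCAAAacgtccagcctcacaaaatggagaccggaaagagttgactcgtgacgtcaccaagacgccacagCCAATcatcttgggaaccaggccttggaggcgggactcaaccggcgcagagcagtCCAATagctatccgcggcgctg
Mcm6: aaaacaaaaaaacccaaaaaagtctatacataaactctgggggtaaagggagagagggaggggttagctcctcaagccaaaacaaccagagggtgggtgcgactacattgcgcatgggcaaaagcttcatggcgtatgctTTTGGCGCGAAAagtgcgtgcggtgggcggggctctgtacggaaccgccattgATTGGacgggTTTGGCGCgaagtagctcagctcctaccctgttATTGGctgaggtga
Cdk1: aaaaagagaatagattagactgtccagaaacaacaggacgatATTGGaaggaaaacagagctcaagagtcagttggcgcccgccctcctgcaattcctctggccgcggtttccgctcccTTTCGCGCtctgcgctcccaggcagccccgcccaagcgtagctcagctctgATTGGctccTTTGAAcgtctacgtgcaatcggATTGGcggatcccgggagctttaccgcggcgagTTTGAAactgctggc
Mki67: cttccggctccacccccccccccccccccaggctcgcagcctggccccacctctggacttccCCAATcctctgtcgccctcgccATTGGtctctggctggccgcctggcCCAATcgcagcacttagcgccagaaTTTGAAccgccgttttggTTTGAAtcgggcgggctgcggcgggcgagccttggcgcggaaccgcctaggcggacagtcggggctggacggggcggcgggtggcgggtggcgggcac

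Transcripts of all 36 genes were present in every library, with 34 to 16685 reads, and all 36 passed the filter on low counts. Mki67, which encodes the proliferation antigen Ki-67 that coats mitotic chromosomes, led them per length, at 43.9 ± 9.56 CPM per kilobase of exons over all 6 libraries (mean and SD). Pcna, the sliding clamp of DNA polymerases, followed at 29.4 ± 5.22 and Mcm6, a helicase subunit, at 21.5 ± 3.602. Hmgb2, a chromatin protein, Top2a, the topoisomerase that untangles sister chromatids, and Mcm5 came next at 16.3 ± 3.04, 15.4 ± 3.56 and 14.7 ± 7.15, closer to each other than their spread. At the low end stood Ccne1 with 2.69 ± 0.442, Tyms with 2.04 ± 0.499 and Gins2 with 1.23 ± 0.340 CPM per kilobase.

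**Figure D1:**
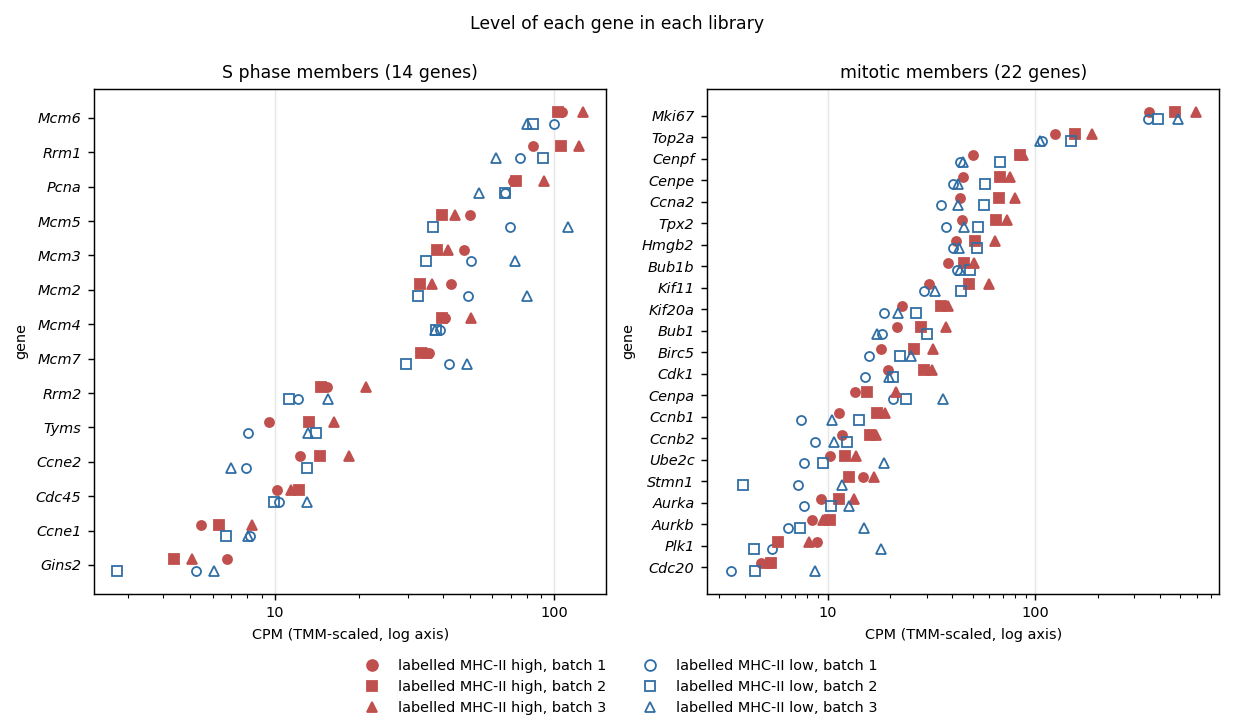
Level of each gene in each library in CPM on a log axis, S phase genes on the left and mitotic genes on the right, with filled red symbols for the high label, open blue symbols for the low label, and 1 symbol shape per batch. Mki67 lies between 349 and 597 CPM, the labels overlap for 32 of the 36 genes, and circles (batch 1) sit at the left of most mitotic rows.

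Between the labels, 0 of the 36 genes passed the quasi-likelihood test of edgeR at an adjusted p under 0.05, in either direction. Their adjusted p values ran from 0.384 to 0.992, over 14140 tested genes of which 0.446% were called, 0.0919% higher and 0.354% lower under the high label. At an unadjusted p under 0.05 stood 2 of the 36, against 12.1% of all tested genes. They were Stmn1, higher under the high label as were 4.06% of all genes, and Cenpa, lower as were 7.99%. DESeq2, which called 2.81% of all genes, and limma-voom, which called 0.368%, also called 0 of the 36. The log2 fold change, labelled high over labelled low, was above 0 for 19 of 22 mitotic and 9 of 14 S phase genes, against 48.5% of all tested genes. Its median was 0.38 over the mitotic genes, 0.17 over the S phase genes and -0.021 over all tested genes.

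The test does not show that the levels were alike. The 95% intervals of the log2 fold change stayed within -1 and 1 for 21 of the 36 genes, reached past 1 for 11 and past -1 for 4. The groups did not overlap in 4 of the 36, against 19.9% of all tested genes. In these 4, Stmn1, Pcna, Mcm6 and Mcm4, all 3 libraries labelled high lay above all 3 labelled low, against 10.5% of all tested genes, and in 0 the reverse held, against 9.48%. Within batches, 14 of 22 mitotic genes and 6 of 14 S phase genes were higher under the high label in all 3, against 20.8% of all tested genes, and 1 of the 36, Cenpa, was lower in all 3, against 19.3%. Markers of dendritic cells moved with the labels, with summed levels of 47.9 to 90.8 CPM under the high label and 277 to 411 CPM under the low label. Of 7 tested markers, 4 were called lower in the libraries labelled high, against 0.354% of all tested genes. Most of each sum came from Itgax, which encodes CD11c, at 61.3 ± 23.4 CPM under the high label and 304 ± 73.5 CPM under the low label. Flt3 averaged 0.117 ± 0.0922 CPM under the high label and 3.05 ± 1.98 CPM under the low label. Ccl22 averaged 0.586 ± 0.0894 CPM under the high label and 12.3 ± 1.52 CPM under the low label. The part of dendritic cells in the values here was not tested.

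**Figure D2:**
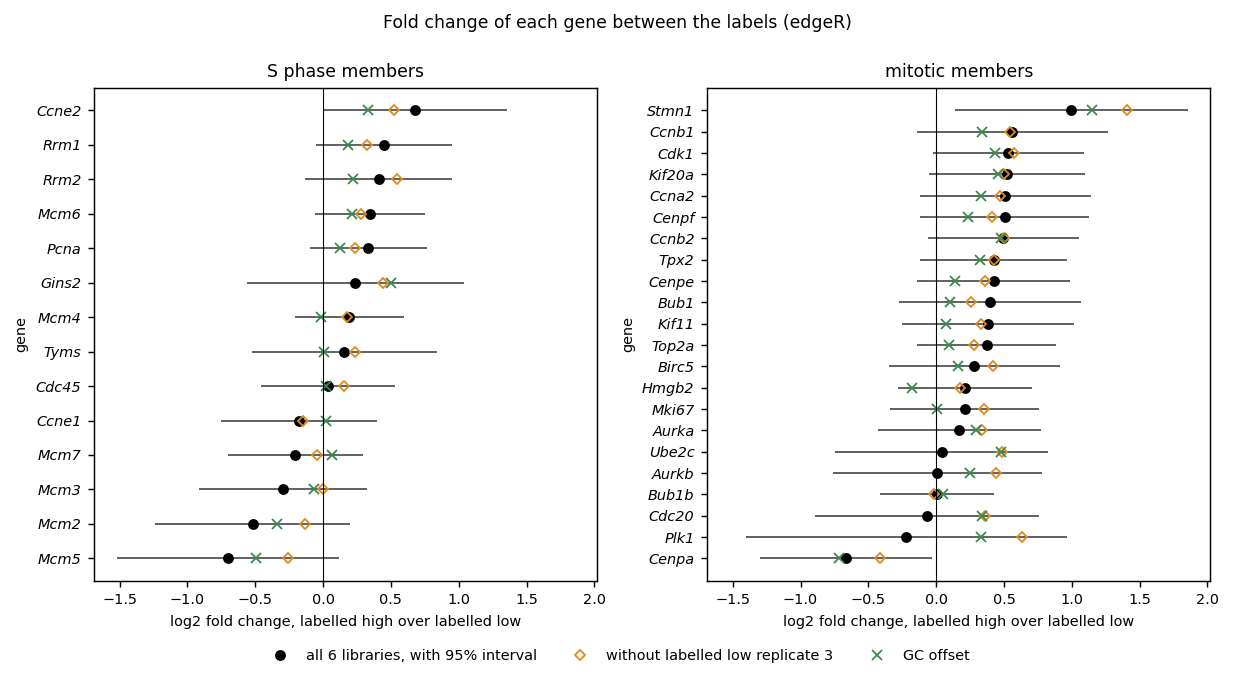
Log2 fold change of each gene, labelled MHC-II high over labelled low, from edgeR with all 6 libraries (black, with the 95% interval), without labelled low replicate 3 (orange diamonds) and with the GC offset described in the text (green crosses). The intervals of Stmn1 (0.14 to 1.85) and Cenpa (-1.30 to -0.033) leave out 0 before adjustment, and Plk1 has the widest interval (-1.40 to 0.96).

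The MCM genes encode the 6 subunits, from Mcm2 to Mcm7, of the ring-shaped helicase that is loaded at origins and unwinds DNA at the fork. Mcm5 had 50.1, 39.7 and 44.1 CPM in labelled high replicates 1, 2 and 3, against 69.8, 37.0 and 112 CPM in labelled low replicates 1, 2 and 3. Mcm2 had 42.7, 33.2 and 36.4 CPM under the high label, against 49.4, 32.5 and 80.1 CPM under the low label. In both genes labelled low replicates 3 and 1 were the highest of all 6 libraries, labelled low replicate 2 was the lowest, and the groups overlapped. The log2 fold change of Mcm5 was -0.70 (standard error 0.36, adjusted p 0.448 by edgeR) and -0.26 without labelled low replicate 3, and that of Mcm2 was -0.52 (standard error 0.31, adjusted p 0.484) and -0.13. With the GC offset described below, the log2 fold change of Mcm5 was -0.50 (adjusted p 0.395 by edgeR). Without labelled low replicate 2, Mcm5 was called, at -0.98 (adjusted p 0.0391 by edgeR, where 7.16% of all tested genes were called). Over all 17 alternatives its adjusted p lay between 0.0391 and 1.000.

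Mcm3 and Mcm7 followed the same order of libraries under the low label. Mcm3 had 47.6, 38.3 and 41.9 CPM under the high label, against 50.2, 34.7 and 72.5 CPM under the low label, and its log2 fold change of -0.29 came to 0.0021 without labelled low replicate 3. Mcm7 had 35.8, 33.5 and 35.1 CPM under the high label, against 42.1, 29.5 and 48.9 CPM under the low label (log2 fold change -0.20, and -0.045 without labelled low replicate 3). Mcm6 and Mcm4 had fold changes above 0. For Mcm6 the values were 107, 103 and 127 CPM under the high label, against 99.96, 84.3 and 80.3 CPM under the low label, with no overlap and a log2 fold change of 0.35 (standard error 0.18, adjusted p 0.449 by edgeR). For Mcm4 they were 40.8, 39.7 and 50.4 CPM under the high label, against 39.2, 37.9 and 37.5 CPM under the low label, again without overlap, with a log2 fold change of 0.19 (adjusted p 0.589 by edgeR). The 4 subunit genes with a log2 fold change below 0 had transcripts of 51.7% to 53.4% GC, and Mcm4 and Mcm6 had 45.5% and 47.3%. Summed over Mcm2, Mcm3, Mcm5 and Mcm7, labelled low replicate 3 had 313 CPM and the other 5 libraries 134 to 212 CPM, while Mcm4 and Mcm6 together had 118 CPM in it and 122 to 177 CPM in the others.

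**Figure D3:**
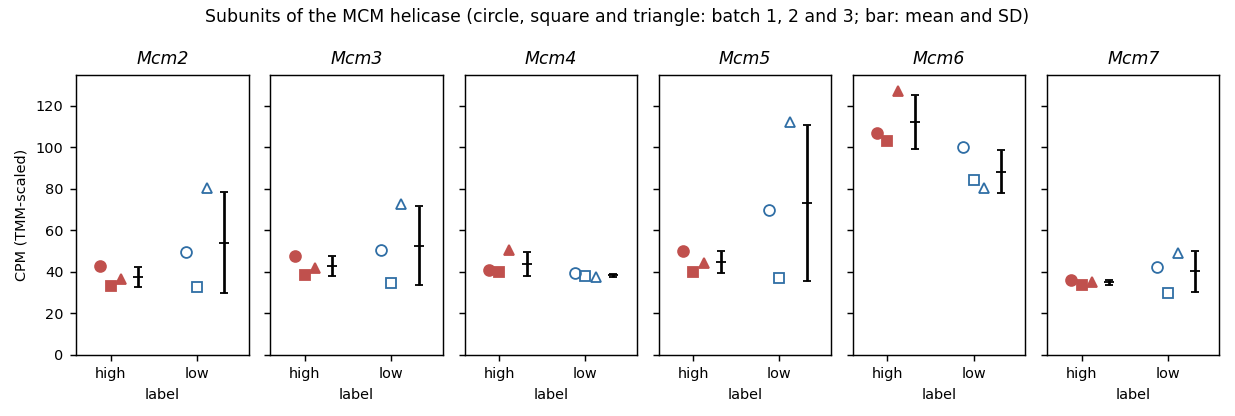
CPM of the 6 MCM helicase subunit genes by library, labelled MHC-II high (filled red) left of labelled low (open blue), with the mean and SD of 3 libraries beside each group. Labelled low replicate 3 (open triangle) is the highest library for Mcm2, Mcm3, Mcm5 and Mcm7 and the lowest for Mcm4 and Mcm6.

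Other fork genes were Pcna, Cdc45 and Gins2, the last pair parts of the active helicase. Pcna had 71.0, 72.9 and 92.1 CPM under the high label, against 66.8, 66.5 and 53.7 CPM under the low label, without overlap (log2 fold change 0.33, standard error 0.19, adjusted p 0.465 by edgeR). Cdc45 had 10.2, 12.2 and 11.4 CPM under the high label, against 10.3, 9.93 and 13.0 CPM under the low label, overlapping around a log2 fold change of 0.035 (95% interval -0.46 to 0.53). Gins2 had the lowest level per length of the 36, and its values were 6.73, 4.37 and 5.08 CPM under the high label, against 5.22, 2.74 and 6.07 CPM under the low label, the last from 34 reads. It shares 67.3% of its exon bases with Gse1 on the opposite strand. The strand setting of the counting is not given. If strand was ignored, reads in the shared bases were ambiguous and left out, so the level of Gins2 may be too low.

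Nucleotide supply was represented by Rrm1 and Rrm2, the subunits of ribonucleotide reductase, and Tyms, thymidylate synthase. Rrm1 had 83.8, 106 and 123 CPM under the high label, against 75.4, 91.0 and 61.7 CPM under the low label (log2 fold change 0.45, standard error 0.22, adjusted p 0.434 by edgeR). Rrm2 had 15.4, 14.7 and 21.2 CPM under the high label, against 12.1, 11.3 and 15.5 CPM under the low label (log2 fold change 0.41). Both were higher under the high label in each of the 3 batches, and their groups overlapped. Tyms showed no common direction, at 9.57 to 16.3 CPM under the high label, against 8.05 to 14.1 CPM under the low label, with log2 ratios of 0.25, -0.083 and 0.30 within batches 1, 2 and 3. Copies of Tyms and Pcna are annotated elsewhere in the genome (Tyms-ps, Pcna-ps1, Pcna-ps2), and reads that fit several places equally were not counted.

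The E-type cyclins, which activate CDK2 at the entry into S phase, had fold changes on opposite sides of 0. Ccne2 had 12.3, 14.5 and 18.4 CPM under the high label, against 7.89, 13.1 and 6.96 CPM under the low label, with a log2 fold change of 0.68 (standard error 0.30, adjusted p 0.414 by edgeR). Ccne1 had 5.45, 6.33 and 8.33 CPM under the high label, against 8.15, 6.70 and 8.03 CPM under the low label (log2 fold change -0.18). Transcripts of Ccne2 had the lowest GC content of the 36, 36.3%, and those of Ccne1 had 52.7%. With the GC offset the log2 fold change of Ccne2 was 0.33 (adjusted p 0.321 by edgeR). Ccne2 was called without labelled low replicate 2, at 1.04 (adjusted p 0.0477 by edgeR, where 7.16% of all tested genes were called). Its adjusted p lay between 0.0477 and 1.000 over all 17 alternatives. Of its exon bases 17.4% lie under Ints8 on the opposite strand.

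Among the mitotic genes, the largest fold change was that of Stmn1, on chromosome 4 from 134468320 to 134473843 (GRCm38). It encodes stathmin, a protein that takes microtubules apart and is switched off by phosphorylation in mitosis. Stmn1 had 14.7, 12.7 and 16.7 CPM under the high label, against 7.19, 3.92 and 11.8 CPM under the low label. Its groups did not overlap, and the within-batch log2 ratios were 1.04, 1.69 and 0.50. The log2 fold change was 0.99 (standard error 0.37, unadjusted p 0.0282, adjusted p 0.384 by edgeR). Stmn1 passed with no filter on low counts (adjusted p 0.0286, 2.02% of genes called) and when the GC offset was joined to a batch block (log2 fold change 1.18, adjusted p 0.0269, 3.72% called). Over all 17 alternatives its adjusted p lay between 0.0269 and 0.857. The GC offset takes out of each library its smooth trend of log2 CPM over GC content, and the block compares the labels within batches.

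The log2 fold change of Cenpa lay below 0. The gene lies on chromosome 5 from 30666777 to 30674830 and encodes the histone H3 variant that marks centromeres. Cenpa had 13.6, 15.5 and 21.4 CPM under the high label, against 20.8, 24.0 and 36.05 CPM under the low label, and was the only one of the 36 genes lower under the high label in all 3 batches, with log2 ratios of -0.61, -0.63 and -0.75. Labelled high replicate 3 lay above labelled low replicate 1, so the groups overlapped. The log2 fold change was -0.67 (standard error 0.28, unadjusted p 0.0413, adjusted p 0.405 by edgeR) and -0.41 without labelled low replicate 3. In the fit that joins GC offset and block it was called, at -0.72 (adjusted p 0.0291 by edgeR, where 3.72% of all tested genes were called). Over all 17 alternatives its adjusted p lay between 0.0291 and 0.858. Other kinetochore genes had fold changes above 0, none called. Cenpf, a large kinetochore protein, had 50.1, 84.4 and 87.3 CPM under the high label, against 43.7, 67.5 and 45.0 CPM under the low label (log2 fold change 0.50, adjusted p 0.456 by edgeR). Cenpe, a kinetochore motor, lay at 44.7 to 75.3 CPM under the high label, against 40.3 to 57.1 CPM under the low label (0.42). Bub1, a kinase of the spindle checkpoint, lay at 21.6 to 37.3 CPM under the high label, against 17.3 to 30.2 CPM under the low label (0.40). The groups overlapped in each of these 3 genes, and labelled high replicate 1 lay below labelled low replicate 2. With the GC offset the log2 fold changes of Cenpf, Cenpe and Bub1 were 0.23, 0.14 and 0.099. Bub1b, which encodes BUBR1, lay at 38.1 to 50.8 CPM under the high label, against 41.9 to 48.4 CPM under the low label, with a log2 fold change of 0.0068 (95% interval -0.41 to 0.42).

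Cdk1, the kinase that starts mitosis, and its cyclins had log2 fold changes of 0.50 to 0.56, with intervals that held 0. Cdk1 had 19.6, 29.0 and 31.8 CPM under the high label, against 15.2, 20.7 and 19.8 CPM under the low label (log2 fold change 0.53, standard error 0.24, adjusted p 0.420 by edgeR). Ccna2, cyclin A2, had 43.5, 67.1 and 80.1 CPM under the high label, against 35.1, 56.6 and 42.3 CPM under the low label (log2 fold change 0.51). Ccnb1, cyclin B1, had 11.4, 17.4 and 18.9 CPM under the high label, against 7.46, 14.2 and 10.5 CPM under the low label (log2 fold change 0.56). In all 3 genes labelled low replicate 1 was the lowest of the 6 libraries and labelled high replicate 3 the highest. Ccnb2, cyclin B2, lay at 11.7 to 17.1 CPM under the high label, against 8.74 to 12.4 CPM under the low label (log2 fold change 0.50). All 4 genes were higher under the high label within each batch, and the groups overlapped, with labelled high replicate 1 below labelled low replicate 2. The same order was seen in 3 spindle genes. Kif20a, a kinesin of cytokinesis, had 22.8, 35.3 and 38.2 CPM under the high label, against 18.7, 26.6 and 21.8 CPM under the low label (log2 fold change 0.52). Tpx2, which activates Aurora A on the spindle, had 44.6, 65.0 and 72.9 CPM under the high label, against 37.4, 53.2 and 45.5 CPM under the low label (0.42). Kif11, the kinesin that parts the spindle poles, had 30.9, 47.8 and 59.7 CPM under the high label, against 29.2, 43.9 and 33.0 CPM under the low label (0.38). With the GC offset the log2 fold changes of Kif20a, Tpx2 and Kif11 were 0.45, 0.32 and 0.074. The smallest adjusted p of these 7 genes was that of Cdk1 (0.420 by edgeR). Exon bases of Ccna2 and Kif20a are shared with Exosc9 and Cdc23 on the opposite strand, 12.5% and 29.3%.

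Mki67 itself had 352, 474 and 597 CPM under the high label, against 349, 393 and 488 CPM under the low label, a log2 fold change of 0.21 with a 95% interval of -0.34 to 0.76. The GC offset put it at 0.0077, and leaving out labelled low replicate 3 at 0.35. Top2a had 124, 156 and 189 CPM under the high label, against 108, 149 and 105 CPM under the low label. The log2 fold change of Top2a was 0.37 (adjusted p 0.484 by edgeR), and 0.096 with the GC offset. In both genes labelled high replicate 3 was the highest of the 6 libraries and the groups overlapped. Labelled high replicate 3 was the highest in 17 of 22 mitotic and 8 of 14 S phase genes, against 21.4% of all tested genes. Labelled low replicate 3 was the highest in 5 and 5, against 36.8%. Hmgb2 lay at 41.7 to 64.4 CPM under the high label, against 40.3 to 52.2 CPM under the low label (log2 fold change 0.21), with overlap. Birc5, survivin of the chromosomal passenger complex, lay at 18.1 to 32.3 CPM under the high label, against 15.8 to 25.2 CPM under the low label (0.28).

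For 4 regulators of mitotic entry and exit the fold change rested on labelled low replicate 3. Plk1, Polo-like kinase 1, had 8.90, 5.79 and 8.12 CPM under the high label, against 5.38, 4.42 and 18.0 CPM under the low label, and its log2 fold change was -0.22 with that library and 0.63 without it. Cdc20, the activator of the anaphase-promoting complex, had 4.79, 5.35 and 5.15 CPM under the high label, against 3.41, 4.497 and 8.74 CPM under the low label (-0.067 with the library and 0.36 without it). Ube2c, the ubiquitin-conjugating enzyme of that complex, had 10.2, 12.1 and 13.7 CPM under the high label, against 7.67, 9.48 and 18.7 CPM under the low label (0.040 with the library and 0.48 without it). In each of the 3 genes that library was the highest of the 6. Aurkb, the kinase Aurora B, had 8.46, 10.2 and 9.47 CPM under the high label, against 6.45, 7.36 and 15.0 CPM under the low label (0.0075 with the library and 0.44 without it). None of the 4 passed without it. Their transcripts had 52.5% to 56.0% GC, against a median of 47.8% over the 36. Aurka, the kinase Aurora A, lay at 9.35 to 13.5 CPM under the high label, against 7.73 to 12.7 CPM under the low label (0.17 with the library and 0.34 without it).

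Over the 36 genes the fold change ran against GC content, with a Spearman correlation of -0.61, against -0.58 over 14123 tested genes. These points share the 6 libraries and are not independent. With the GC offset the median log2 fold change was 0.27 over the mitotic genes and 0.043 over the S phase genes, and 0 of the 36 were called where 2.52% of all tested genes were. Without labelled low replicate 3 the medians were 0.41 and 0.21. Leaving out labelled high replicates 1, 2 and 3 in turn called 0.061%, 0.0553% and 0.0967% of all tested genes and 0 of the 36, and leaving out labelled low replicates 1 and 3 called 0.0948% and 0.469% and 0 of the 36. Leaving out both libraries of batch 3 called 0.193% and 0 of the 36. Other scalings and filters and the batch block alone also called 0 of the 36, against 0.438% of all tested genes with RLE size factors, 0.424% with total counts, 0.479% with a floor of 1 CPM, 0.45% without rRNA and mitochondrial genes and 0.29% with the block.

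**Figure D4:**
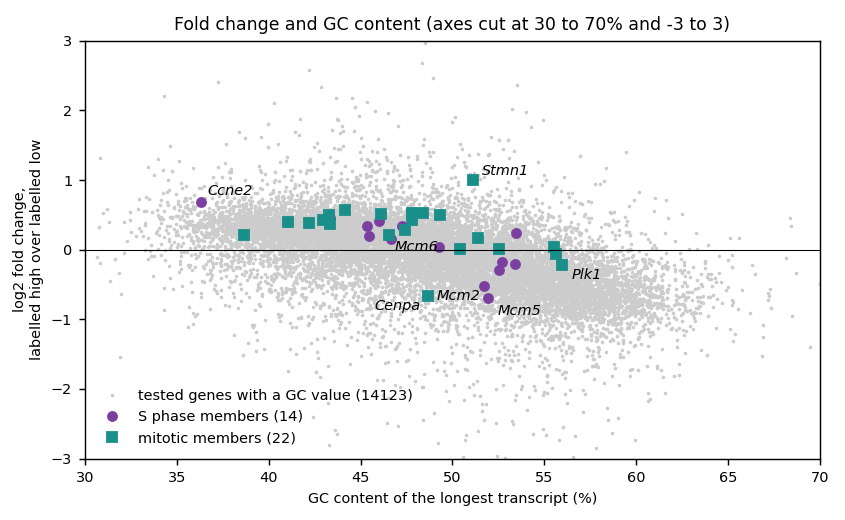
Log2 fold change, labelled MHC-II high over labelled low, against GC content (percent, longest transcript) for tested genes with a GC value (grey), S phase genes (purple circles) and mitotic genes (green squares). Ccne2 lies at 36.3% GC and 0.68, Mcm5 at 51.9% and -0.70, Stmn1 at 51.1% and 0.99 and Cenpa at 48.7% and -0.67.

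The mitotic genes were lowest in batch 1 under both labels. Their summed level was 945, 1284 and 1539 CPM in labelled high replicates 1, 2 and 3, against 868, 1111 and 1115 CPM in labelled low replicates 1, 2 and 3, with a mean of 1256 ± 298 CPM under the high label and 1031 ± 141 CPM under the low label (SD, n = 3 each). Batch 1 was the lowest of the 3 batches under both labels in 18 of 22 mitotic genes and 1 of 14 S phase genes, against 8.15% of all tested genes. Ccnb1 under the low label, for example, stood at 7.46 CPM in batch 1 and 14.2 CPM in batch 2, a wider gap than between the labels within either batch. The summed S phase genes gave 538, 531 and 631 CPM under the high label, against 545, 471 and 609 CPM under the low label. Within batches 1, 2 and 3 the log2 ratio of the labels was 0.12, 0.21 and 0.47 for the mitotic sum and -0.018, 0.17 and 0.050 for the S phase sum.

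**Figure D5:**
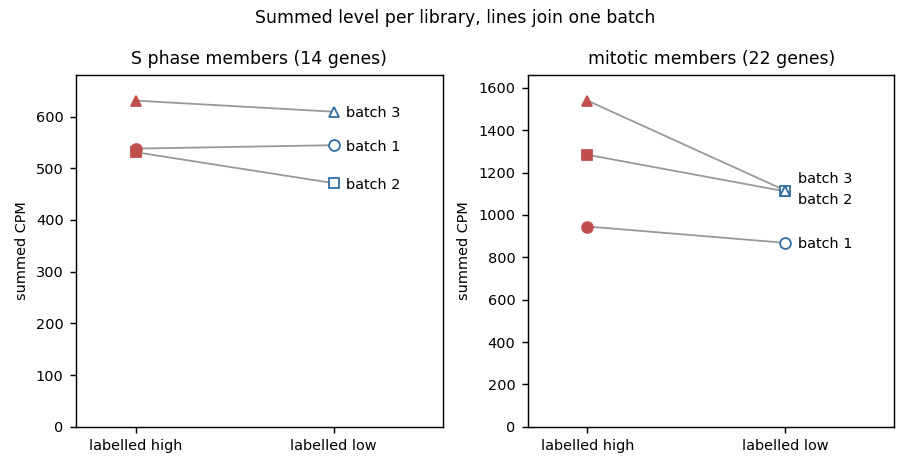
Summed CPM of the S phase genes (left) and the mitotic genes (right) in each library, labelled MHC-II high (filled red) left of labelled low (open blue), with a line joining the libraries of 1 batch. Batch 1 has the lowest mitotic sums (945 CPM under the high label and 868 CPM under the low label).

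Markers of other dividing cells were measured in the same libraries. Of 10 epithelial and tumour cell markers, 4 had 0 reads in all 6 libraries, and Epcam had 0 reads in the libraries labelled high, against 4 in those labelled low. Their sum was 15.0 to 21.7 CPM under the high label and 41.0 to 42.7 CPM under the low label. The largest part came from Cdh1, E-cadherin, at 10.3 ± 1.205 CPM under the high label and 33.9 ± 3.70 CPM under the low label (adjusted p 0.0180 by edgeR). The keratin genes Krt18 and Krt8 had reads in all 6 libraries. Krt18 averaged 5.68 ± 3.59 CPM under the high label and 5.48 ± 2.39 CPM under the low label. Krt8 averaged 1.83 ± 0.972 CPM under the high label and 2.09 ± 1.39 CPM under the low label. Fibroblast markers summed to 424, 421 and 77.4 CPM under the high label and 526, 616 and 143 CPM under the low label, lowest in batch 3 under both. Most of each sum came from Col3a1, at 218 ± 143 CPM under the high label and 321 ± 187 CPM under the low label. Dcn averaged 43.8 ± 29.2 CPM under the high label and 47.6 ± 35.8 CPM under the low label. Both are named after their values were seen. Col1a1, Col1a2 and Postn stayed at 0.393 to 3.21 CPM in every library. Sums of T and NK cell markers were 0.668 to 1.29 CPM under the high label and 2.50 to 2.88 CPM under the low label, with Cd3d, Cd3e, Cd8a and Cd8b1 at 0 reads. Those of B cell markers were 2.23 to 2.90 CPM under the high label and 6.54 to 13.0 CPM under the low label. Neutrophil markers, with Ly6g at 0 reads, gave 17.3 to 28.2 CPM under the high label and 17.0 to 35.0 CPM under the low label, and endothelial markers 18.2 to 25.2 CPM under the high label and 16.0 to 31.6 CPM under the low label. Erythroid markers gave 0.0358 to 0.356 CPM under the high label and 0.0818 to 0.714 CPM under the low label, and monocyte markers 266 to 378 CPM under the high label and 345 to 941 CPM under the low label. The part of such cells in the levels of the 36 genes was not tested.

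The rest of the cell cycle machinery was measured through 7 further lists of 159 tested genes, of which edgeR called 0 in either direction, against 0.446% of all tested genes. At an unadjusted p under 0.05 stood 11 of them, against 12.1%. DESeq2 called 0, against 2.81%, and limma-voom 0, against 0.368%. Without labelled low replicate 2 edgeR called 5, against 7.16% of all tested genes. These were Cad, Espl1, Mastl, Ncapg and Ncaph2, of which Espl1 and Ncapg are named after their values were seen. On the mitotic side, 29 of 36 spindle and kinetochore genes had a log2 fold change above 0 (median 0.37), as did 14 of 19 genes of mitotic entry and exit (median 0.29) and 15 of 20 genes of condensin, cohesin and the nuclear envelope (median 0.23). With the GC offset these 3 medians were 0.15, 0.24 and 0.073, and without labelled low replicate 3 they were 0.33, 0.32 and 0.13. Anln, the furrow protein anillin, averaged 43.6 ± 9.32 CPM under the high label and 28.5 ± 4.404 CPM under the low label (log2 fold change 0.61, adjusted p 0.379 by edgeR). Fbxo5, the inhibitor of the anaphase-promoting complex known as EMI1, averaged 7.64 ± 0.783 CPM under the high label and 4.88 ± 0.782 CPM under the low label, and Rad21, the kleisin subunit of cohesin, 124 ± 11.9 CPM under the high label and 90.8 ± 8.72 CPM under the low label. The checkpoint kinase gene Ttk, the kinase gene Melk and the condensin gene Ncaph2 had log2 fold changes of 0.81, 0.63 and -0.61. The GC offset put Ncaph2 at -0.17, and leaving out labelled low replicate 3 at -0.26.

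On the replication side, 19 of 24 genes of origin licensing and firing had a log2 fold change above 0 (median 0.20), as had 14 of 29 genes of polymerases, clamp and chromatin assembly (median -0.015) and 7 of 12 of nucleotide synthesis (median 0.10). With the GC offset these 3 medians were 0.048, -0.028 and 0.040, and without labelled low replicate 3 they were 0.14, 0.092 and 0.12. Gmnn, geminin, which blocks a further round of licensing, averaged 12.9 ± 1.66 CPM under the high label and 7.58 ± 1.02 CPM under the low label (log2 fold change 0.76, unadjusted p 0.00908, adjusted p 0.270 by edgeR). Cdt1, the licensing factor that geminin binds, averaged 6.42 ± 1.48 CPM under the high label and 10.1 ± 5.23 CPM under the low label (log2 fold change -0.62, and -0.15 without labelled low replicate 3). Cad, the enzyme that begins pyrimidine synthesis, averaged 17.8 ± 3.27 CPM under the high label and 38.3 ± 25.2 CPM under the low label (log2 fold change -1.09, and -0.44 without that library), and Dck, deoxycytidine kinase, 38.3 ± 7.75 CPM under the high label and 26.0 ± 6.31 CPM under the low label (0.55). Atad2, a chromatin protein of the AAA+ family, and Pold2, a subunit of polymerase delta, had 0.43 and -0.70. The GC offset put them at 0.10 and -0.14, and leaving out labelled low replicate 3 put Pold2 at -0.27. Of the transcription factors and their partners, 11 of 19 were above 0 (median 0.16, -0.031 with the GC offset and 0.16 without labelled low replicate 3). E2f1, an activating E2F, averaged 20.9 ± 6.12 CPM under the high label and 35.5 ± 19.6 CPM under the low label, and Mybl2, which encodes B-MYB, 6.69 ± 0.0390 CPM under the high label and 11.99 ± 7.95 CPM under the low label. Their log2 fold changes were -0.75 and -0.80 with labelled low replicate 3, and -0.28 and -0.16 without it. E2f5 lay on the other side of 0, at 9.64 ± 1.27 CPM under the high label and 5.10 ± 3.18 CPM under the low label. Its log2 fold change was 0.85 (adjusted p 0.447 by edgeR), 0.72 with the GC offset and 0.51 without labelled low replicate 3.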

How the data were processed

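Total RNA depleted of rRNA went into stranded libraries, per the labels' protocols. Raw read counts for each Ensembl gene were deposited. Per the submitters' processing notes the tools were FastQC, Trimmomatic, STAR, HTSeq and DESeq2, with GRCm38. Neither the annotation release nor how HTSeq treated strand is stated in the labels. Reads with no feature (35.2% to 49.4% of a library), with several places (7.60% to 17.4%) or ambiguous between genes (0.324% to 0.864%) stayed out, which can lower genes with overlapping neighbours or copies.

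GENCODE M21 gave symbols, merged exon lengths and GC content for 55227 of 55487 gene IDs. The main test was the quasi-likelihood test of edgeR 4.0.16 in R 4.3.3, with TMM factors and the default low-count filter, labelled high over labelled low, with Benjamini-Hochberg adjustment over 14140 genes and a threshold of 0.05. Standard errors were taken as the fold change over the root of F. The code was tested on simulated data.

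Alternatives were other scalings and filters, DESeq2 1.42.0, limma-voom (limma 3.58.1), removal of rRNA and mitochondrial genes, a batch block, a GC offset (local regression, span 0.4), and leaving out libraries. Libraries were paired by the batch that the labels give. In batches 1, 2 and 3, deviations of paired libraries from their group means correlated at 0.16, 0.33 and -0.12 over 14140 genes. For libraries of different batches the correlation was -0.49 to 0.35. Over the 36 genes alone the paired values were 0.46, 0.73 and -0.59, against -0.88 to 0.74 for libraries of different batches. The 36 genes, the lists and the alternatives were chosen with earlier results of these data known. All 36 genes could be named, and of each other list up to 4 tested genes of at least 1 CPM by rank of p, markers at or near 0 reads and the genes that check the labels.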

Additional observations from a re-analysis of the deposited data

How the results depend on the processing

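Under 14 of 17 alternatives 0 of 36 genes were called. One exception was Stmn1 with no filter (1 mitotic gene called, against 2.02% of all tested genes). Others were Stmn1 and Cenpa with the GC offset and block (2 called, against 3.72%). Ccne2 and Mcm5 were called without labelled low replicate 2 (2 S phase genes called, against 7.16%). Leaving out 1 library at a time called 0 to 2 S phase and 0 mitotic genes. The batch block changed no call among the 36 genes (smallest adjusted p 0.353 by edgeR) but left 1 gene higher and 40 lower over all genes, against 13 and 50 without it. All-gene counts, higher and lower, were 121 and 277 by DESeq2, 113 and 436 with no filter, 117 and 239 with the GC offset, 159 and 367 with offset and block, 8 and 52 with total counts, 0 and 28 without batch 3, and 0 to 246 and 8 to 784 without 1 library. The median log2 fold change of the S phase genes was 0.46 with total counts, 0.24 with no filter, 0.043 with the GC offset, 0.0425 with offset and block, 0.090 without batch 3 and 0.055 to 0.22 without 1 library. That of the mitotic genes was 0.61 with total counts and 0.17 to 0.59 without 1 library. Total counts moved the median of all genes to 0.25, from which those values are to be read.

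Some genes, none of them called, took the opposite sign of their log2 fold change under an alternative, and the cause was not tested. With the GC offset, the values were Mcm4 (-0.018), Ccne1 (0.019), Mcm7 (0.064), Hmgb2 (-0.18), Cdc20 (0.34) and Plk1 (0.33). With the GC offset and block, the values were Mcm4 (-0.019), Tyms (-0.0026), Mcm7 (0.063), Hmgb2 (-0.17), Cdc20 (0.35) and Plk1 (0.37). With total counts, the values were Ccne1 (0.11), Mcm7 (0.15), Mcm3 (0.11), Cdc20 (0.34) and Plk1 (0.32). Without batch 3, the values were Mcm3 (0.018), Bub1b (-0.11), Cdc20 (0.36), Plk1 (0.59) and Hist1h4d (0.18). With RLE size factors, the values were Aurkb (-0.0057) and Bub1b (-5.6e-05). With DESeq2, the value was Aurkb (-0.0077). With limma-voom, the values were Bub1b (-0.0012), Cdc20 (0.13) and Plk1 (0.20). With the batch block, the value was Bub1b (-0.0017). With no filter, the value was Cdc20 (0.023). Without 1 library at a time, the sign changed in the ranges of Gins2 (-0.024 to 0.44), Tyms (-0.048 to 0.37), Cdc45 (-0.0032 to 0.15), Mcm3 (-0.49 to 0.0021), Ube2c (-0.18 to 0.48), Aurkb (-0.20 to 0.44), Bub1b (-0.091 to 0.13), Cdc20 (-0.32 to 0.36), Plk1 (-0.52 to 0.63) and Hist1h4d (-1.36 to 0.062). Depth limited Gins2, Ccne2 and Ccne1 most, with 34, 39 and 45 reads in labelled low replicate 3.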

Other observations

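Histone genes of the replication-dependent clusters are mostly transcribed in S phase and, in rRNA-depleted total RNA, are counted although most of their mRNAs lack a poly(A) tail. Of 27 such genes 26 could be tested and edgeR called 0, against 0.446% of all tested genes, with 1 at an unadjusted p under 0.05, against 12.1%. DESeq2 called 0, against 2.81%, and limma-voom 0, against 0.368%. The log2 fold change was below 0 in 25 of 26, with a median of -0.50, but leaving out labelled low replicate 3 put the median at 0.35 and the GC offset put it at -0.038. Their summed level was 323, 242 and 227 CPM in labelled high replicates 1, 2 and 3, against 255, 174 and 574 CPM in labelled low replicates 1, 2 and 3. Hist1h4d, an H4 gene, averaged 17.4 ± 3.25 CPM under the high label and 34.4 ± 31.4 CPM under the low label. Hist1h2bc, an H2B gene, was the exception, at 23.1 ± 1.86 CPM under the high label and 14.8 ± 2.06 CPM under the low label (log2 fold change 0.65, unadjusted p 0.0113, adjusted p 0.292 by edgeR). Many of these genes are near-identical copies, so reads placed in several of them were not counted and their single values are uncertain.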
